A study of Homo sapiens with 18 samples.

Results

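The 8 genes described belong to cholesterol synthesis and its control: HMGCS1, FDPS, FDFT1, SQLE, SC5D, DHCR7, INSIG1 and SREBF2. The cells were OCI-AML3, an established human acute myeloid leukaemia cell line whose genotype is labelled wildtype. For each gene the probe that carries only its symbol was taken, and the one with the highest mean signal where there were several, which gave 7 genes among 21448 probes, of which 17709 have 1 symbol. FDFT1, squalene synthase, was not matched to a probe and is not analysed here. The cells were exposed for 24 h to the solvent DMSO, to RG7112 at 2 µM or to HDM201 at 500 nM, with 6 arrays of total RNA in each group, called biological replicates in the labels. Both compounds inhibit MDM2, the ubiquitin ligase that holds p53 down, and the title of the series places them in work on immunity against leukaemia after stem cell transplantation. How the replicate cultures were kept apart is not in the labels, so p-values measure only the spread between these samples, and all cells come from 1 line.

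Cholesterol and the isoprenoids are made from acetyl-CoA by the mevalonate pathway, which blood cells, like other dividing cells, use for membranes and for the lipid anchors of small GTPases. Its genes are driven by SREBP2, the product of SREBF2. SREBP2 is held in the endoplasmic reticulum with its escort SCAP by INSIG proteins when sterols are plentiful, and is carried to the Golgi and cut when sterols are low. HMGCS1, FDPS, SQLE, SC5D, DHCR7, INSIG1 and SREBF2 itself are all known targets of SREBP2, which binds sterol regulatory elements, usually near boxes for the factors NF-Y and SP1.

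Promoters are shown for SREBF2, FDPS, HMGCS1 and INSIG1, because SREBF2 encodes the shared regulator and the other genes were called lower with at least 1 compound. SC5D, which was also called lower, is covered by the counts of matches, and the promoter of SQLE, called lower as well, was not searched here. Each run holds the 250 bases before a RefSeq start in GRCh38.p14, written 5′ to 3′ in the direction of the gene, and HMGCS1 is given by the upstream of its 2 windows. Capitals mark TCACNCCAC, a form of the sterol regulatory element, and CCAAT, the NF-Y box, or their reverse complements.
SREBF2, chr22:41832855-41833104, plus strand: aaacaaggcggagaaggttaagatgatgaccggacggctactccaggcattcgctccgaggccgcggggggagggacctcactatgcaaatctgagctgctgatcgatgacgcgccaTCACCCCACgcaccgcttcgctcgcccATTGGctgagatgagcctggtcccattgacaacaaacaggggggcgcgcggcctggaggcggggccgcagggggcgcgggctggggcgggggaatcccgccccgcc
FDPS, chr1:155308616-155308865, plus strand: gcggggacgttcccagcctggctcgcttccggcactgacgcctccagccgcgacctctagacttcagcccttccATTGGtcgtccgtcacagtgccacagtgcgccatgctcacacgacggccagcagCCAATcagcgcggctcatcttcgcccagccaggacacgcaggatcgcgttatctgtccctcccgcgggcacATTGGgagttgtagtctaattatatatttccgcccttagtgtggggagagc
HMGCS1, chr5:43313413-43313662, minus strand: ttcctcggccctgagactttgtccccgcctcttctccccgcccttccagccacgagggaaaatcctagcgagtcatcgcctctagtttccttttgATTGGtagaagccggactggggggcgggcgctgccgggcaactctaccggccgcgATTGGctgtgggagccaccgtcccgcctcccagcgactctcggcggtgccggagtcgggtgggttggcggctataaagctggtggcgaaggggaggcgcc
INSIG1, chr7:155297628-155297877, plus strand: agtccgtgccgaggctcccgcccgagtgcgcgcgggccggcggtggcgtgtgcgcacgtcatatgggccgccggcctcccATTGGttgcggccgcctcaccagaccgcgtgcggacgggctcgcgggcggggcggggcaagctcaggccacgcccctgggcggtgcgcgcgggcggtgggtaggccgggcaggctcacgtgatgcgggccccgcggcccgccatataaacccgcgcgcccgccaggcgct

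The search covered 9 windows of 6 genes, these and those of DHCR7 and SC5D, on both strands. TCACNCCAC was found in 1 of the 9 windows, that of SREBF2, where it began 133 bases before the start, and in 0.883% of all 35116 windows of this length. CCAAT was found in 7 of the 9 windows and in at least 1 window of each of the 6 genes, against 32.0% of all windows. FDPS held CCAAT at 3 places, beginning 176, 122 and 51 bases before the start, and SREBF2 at 1 place, 106 bases before it. GGGCGG, the SP1 box, was found in 8 of the 9 windows, against 42.6% of all windows. Of 17 windows of 13 other mevalonate and sterol enzymes, 0 held TCACNCCAC, 11 held CCAAT and 14 held GGGCGG. No match of one motif overlapped a match of another in the 9 windows. Windows of 1 gene can overlap, as those of HMGCS1 and SC5D do, and a match is a run of letters and not a measured site.

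Values are log2 signals as deposited, and a difference of 1 is 2-fold. Array medians lay between 6.44 and 6.57 and the lowest signals between 2.66 and 2.85. All 7 genes lay above the lowest signals on every array, and levels are not compared between genes because each probe has its own brightness. The treatment was visible in p53 targets: MDM2 rose 5.95-fold with RG7112 and 5.98-fold with HDM201, and CDKN1A, the cell cycle inhibitor p21, rose 15.6-fold and 17.2-fold (limma, adjusted p from 2.73e-09 to 9.07e-08). RG7112 replicate 3 stood apart, its signals having an interquartile range of 3.45 where the others had 3.70 to 3.91, so the differences of SC5D and DHCR7, the counts over the lists and the co-variation of the 7 genes are also given without it. Replicates 1 to 3 also differ from 4 to 6 in the DMSO signal of CDKN1A (means of 9.06 and 7.41), and values within these sets of numbers are given for most of the 7 genes and for several others. Of the 10 listed myeloid markers 9 were measured, with LYZ at 12.35 to 13.13 and the myeloid factor SPI1 at 10.24 to 10.76, while MPO, CD14 and KIT lay below the array medians by their means. SPI1 rose with both compounds (limma, adjusted p = 0.00111 and 2.70e-04) and CSF3R, the G-CSF receptor, rose with HDM201 (adjusted p = 0.0120). The mean over 6 T and NK cell markers was 4.69 to 5.00, that over the measured B cell markers 5.52 to 5.89, over erythroid markers 5.55 to 6.20, over epithelial and fibroblast markers 5.62 to 6.09 and over 4 hepatocyte markers 4.47 to 5.03. Single markers of other cells lay above the array medians under DMSO, among them COL1A2 (mean 8.24), KRT8 (7.72), NKG7 (7.65) and HBA1 (7.11). Of these markers CD247 rose with both compounds (adjusted p = 0.0225 and 0.0450), KRT8 rose with RG7112 (adjusted p = 0.0307) and EPCAM, at a mean of 4.32 under DMSO and 3.92 with HDM201, fell with HDM201 (adjusted p = 0.00585). The part of the markers in the results was not tested.

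A gene is called lower or higher at an adjusted p under 0.05, from limma with 1 mean per group over all 18 arrays and Benjamini-Hochberg adjustment across the 21448 probes. With RG7112, 5 of the 7 measured genes fell: SQLE, INSIG1, FDPS, SC5D and HMGCS1. Over all probes 9.61% fell and 7.90% rose in this comparison. None of the 7 rose, and DHCR7 and SREBF2 did not pass. With HDM201, 2 of the 7 fell, FDPS and SQLE, none rose and 5 did not pass, beside 9.64% of all probes that fell and 9.16% that rose. The median difference of the 7 genes was -0.54 with RG7112 and -0.36 with HDM201, beside 0.03 and 0.02 over all probes. The genes were chosen with earlier results of these data known, and the shares include 3739 probes with no symbol. The counts beside the shares are thus a description and not a test. Both comparisons use the same DMSO arrays, so they are not independent of each other. In bulk RNA, fewer cells with a transcript and less of it per cell cannot be told apart.

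**Figure D1:**
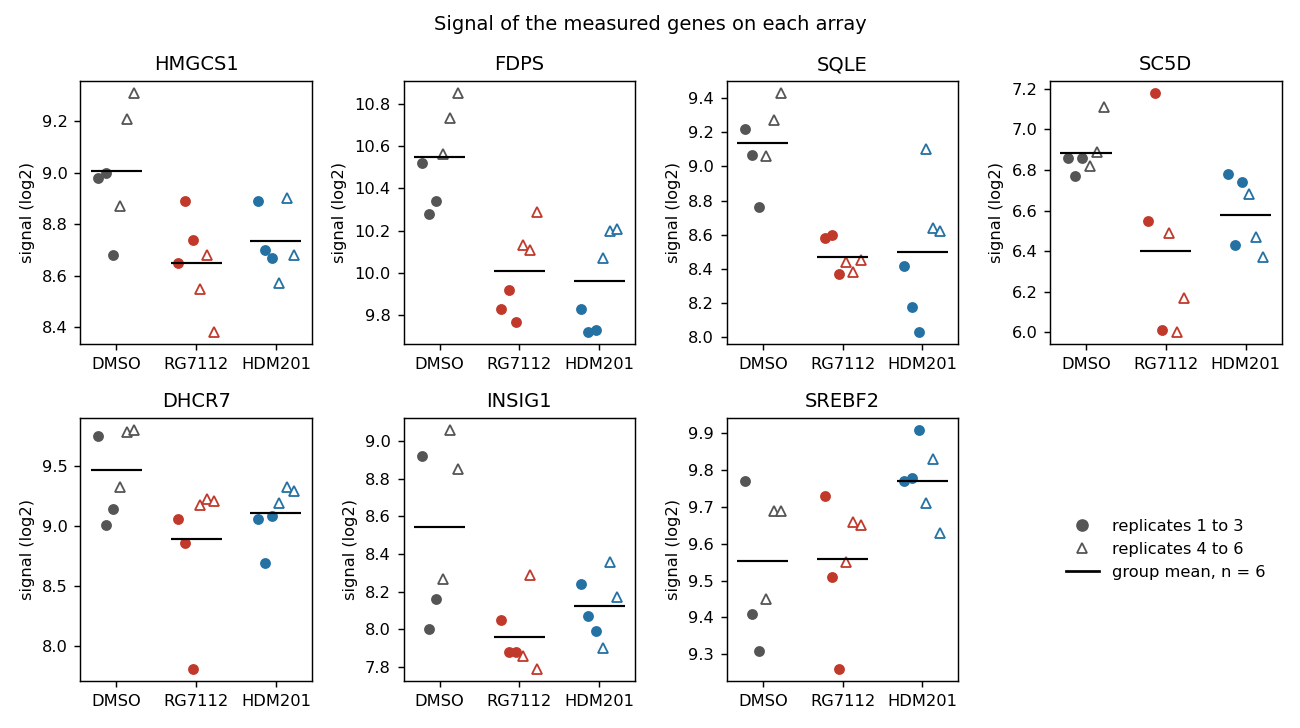
Log2 signal of the 7 measured genes on each of the 18 arrays (vertical axis, own scale for each gene), by group, with the group mean as a line (n = 6); circles are replicates 1 to 3 and open triangles replicates 4 to 6. SQLE on all RG7112 arrays and FDPS on all HDM201 arrays lay below every DMSO array, while SREBF2 overlapped between all groups.

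HMGCS1, the cytosolic synthase that makes HMG-CoA at the head of the pathway, read 8.98, 9.0, 8.68, 8.87, 9.21 and 9.31 on DMSO replicates 1 to 6. On the RG7112 arrays it read 8.65, 8.89, 8.74, 8.55, 8.68 and 8.38, and on the HDM201 arrays 8.89, 8.70, 8.67, 8.57, 8.90 and 8.68. The groups overlapped, with DMSO replicates 3 and 4 among the treated arrays, and 3 RG7112 arrays and 2 HDM201 arrays lay below all DMSO arrays. HMGCS1 fell with RG7112 by 0.36 ± 0.11 (SE, n = 6; 1.29-fold, limma, adjusted p = 0.0204). The difference with HDM201 was -0.27 ± 0.11 (adjusted p = 0.0784). Leaving out DMSO replicate 5 (adjusted p = 0.0529), DMSO replicate 6 (0.0600) or RG7112 replicate 6 (0.0527) ended the RG7112 call, as did a further quantile normalization (0.0620). By replicate set, HMGCS1 differed with RG7112 by -0.13 in numbers 1 to 3 and by -0.60 in numbers 4 to 6, and the difference between those values did not pass (0.47 ± 0.20, adjusted p = 0.798). A fit on numbers 1 to 3 alone also ended the RG7112 call (adjusted p = 0.610). The HDM201 difference passed without DMSO replicate 3 (adjusted p = 0.0250).

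FDPS makes farnesyl diphosphate, the branch point to sterols, dolichol, ubiquinone and protein prenylation. Its signal was 10.52, 10.28, 10.34, 10.56, 10.73 and 10.85 on DMSO replicates 1 to 6. With RG7112 it was 9.83, 9.92, 9.77, 10.13, 10.11 and 10.29, and with HDM201 9.83, 9.72, 9.73, 10.07, 10.20 and 10.21. All HDM201 arrays and 5 of the 6 RG7112 arrays lay below every DMSO array. In 6.92% of all probes every HDM201 array lay below every DMSO array. FDPS fell by 0.54 ± 0.12 with RG7112 (SE, n = 6; 1.45-fold, limma, adjusted p = 0.00312) and by 0.59 ± 0.12 with HDM201 (1.50-fold, adjusted p = 0.00114). Both calls held in each of the 31 alternative settings. Its differences were alike in both sets of replicates, -0.54 and -0.54 with RG7112 and -0.62 and -0.55 with HDM201, although the mean signal was lower in replicates 1 to 3 of every group.

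SQLE, the squalene epoxidase that catalyses an early, rate-limiting step of the sterol branch, read 9.22, 9.07, 8.76, 9.06, 9.27 and 9.43 on the DMSO arrays. It read 8.58, 8.60, 8.37, 8.44, 8.38 and 8.45 with RG7112 and 8.42, 8.18, 8.03, 9.10, 8.64 and 8.62 with HDM201. The RG7112 arrays lay close together and all below DMSO, as did those of 5.61% of all probes. HDM201 replicate 4 read like a DMSO array, and the other 5 lay below all DMSO arrays. SQLE fell by 0.67 ± 0.14 with RG7112 (SE, n = 6; 1.59-fold, limma, adjusted p = 0.00196) and by 0.64 ± 0.14 with HDM201 (1.56-fold, adjusted p = 0.00233). Within replicates 1 to 3 and 4 to 6 the difference was -0.50 and -0.83 with RG7112, and -0.81 and -0.47 with HDM201. A fit on replicates 1 to 3 alone lost the RG7112 call (adjusted p = 0.0726), and a fit on replicates 4 to 6 alone lost the HDM201 call (adjusted p = 0.0507). In a fit of all 18 arrays with a mean for each group and set, the RG7112 difference in 1 to 3 passed (limma, adjusted p = 0.0306). There the HDM201 difference in 4 to 6 did not (0.0682).

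SC5D, the desaturase that introduces a double bond into the sterol ring, read 6.86, 6.77, 6.86, 6.82, 6.89 and 7.11 on DMSO replicates 1 to 6. Its RG7112 signals were 6.55, 7.18, 6.01, 6.49, 6.00 and 6.17, and its HDM201 signals were 6.78, 6.43, 6.74, 6.68, 6.47 and 6.37. The DMSO arrays were close together, RG7112 replicate 2 lay above all of them and the other 5 RG7112 arrays below all of them. SC5D fell with RG7112 by 0.48 ± 0.15 (SE, n = 6; 1.40-fold, limma, adjusted p = 0.0319), and the difference with HDM201 was -0.31 ± 0.15 (adjusted p = 0.187). Leaving out replicate 3, 5 or 6 of either DMSO or RG7112 ended the call (adjusted p from 0.0503 to 0.0778), and so did a model of those 12 arrays alone (0.0654). A model of the 12 HDM201 and DMSO arrays alone made the HDM201 difference pass (adjusted p = 0.0180). Without RG7112 replicate 3 the difference was -0.40 (0.0744). Within replicates 1 to 3 the RG7112 difference was -0.25 and within 4 to 6 it was -0.72, and a fit on replicates 1 to 3 alone also ended the call (adjusted p = 0.571).

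DHCR7, which reduces 7-dehydrocholesterol to cholesterol in the last step of the pathway, read 9.75, 9.01, 9.14, 9.32, 9.78 and 9.80 on the DMSO arrays. It read 9.06, 8.86, 7.81, 9.17, 9.22 and 9.21 with RG7112 and 9.06, 8.69, 9.08, 9.19, 9.32 and 9.29 with HDM201. DMSO replicates 1, 5 and 6 were high, the other DMSO arrays overlapped with the treated ones, and RG7112 replicate 3 was more than 1 below every other RG7112 array. The RG7112 difference was -0.58 ± 0.20 (SE, n = 6; limma, adjusted p = 0.0568), and -0.36 without RG7112 replicate 3 (adjusted p = 0.103). The gene passed when DMSO replicate 2 or 3, or RG7112 replicate 4, 5 or 6, was dropped (adjusted p from 0.0365 to 0.0498), and in 10 of the 31 settings tried in all. With HDM201 the difference was -0.36 ± 0.20 (adjusted p = 0.262). By replicate set DHCR7 differed with RG7112 by -0.72 in numbers 1 to 3 and by -0.43 in 4 to 6, and with HDM201 by -0.36 and -0.37.

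**Figure D2:**
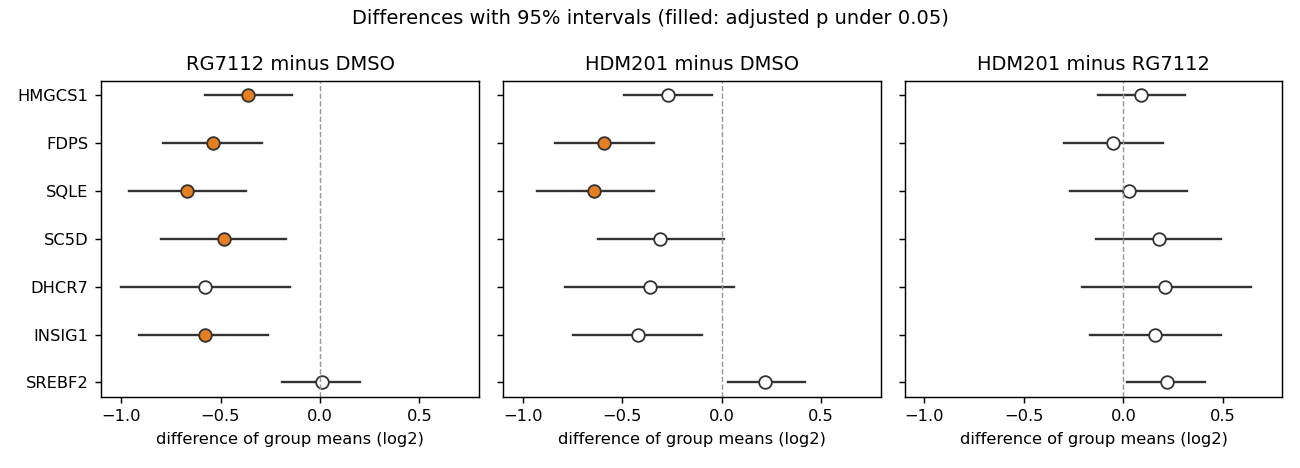
Difference of group means on the log2 scale for each measured gene (points) with its 95% interval from limma (lines), for each compound minus DMSO and for HDM201 minus RG7112; filled points passed at an adjusted p under 0.05. The filled points are 5 genes with RG7112 and 2 with HDM201, and none in the comparison of the compounds.

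INSIG1, the sterol-sensing anchor that retains SCAP and SREBP2 and is itself induced by SREBP2, gave 8.92, 8.0, 8.16, 8.27, 9.06 and 8.85 on DMSO replicates 1 to 6. It gave 8.05, 7.88, 7.88, 7.86, 8.29 and 7.79 with RG7112 and 8.24, 8.07, 7.99, 7.90, 8.36 and 8.17 with HDM201. DMSO replicates 1, 5 and 6 lay above all treated arrays, while DMSO replicates 2, 3 and 4 lay among them. INSIG1 fell with RG7112 by 0.58 ± 0.16 (SE, n = 6; 1.50-fold, limma, adjusted p = 0.0122), a call that held without each of the 18 arrays in turn. The HDM201 difference was -0.42 ± 0.16 (adjusted p = 0.0670), and it passed without DMSO replicate 2 (0.0164) or DMSO replicate 3 (0.0350). Within replicates 1 to 3 and 4 to 6 INSIG1 differed by -0.42 and -0.74 with RG7112 and by -0.26 and -0.58 with HDM201, and a fit on replicates 1 to 3 alone lost the RG7112 call (adjusted p = 0.250).

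SREBF2, the gene of the regulator itself, read 9.77, 9.41, 9.31, 9.45, 9.69 and 9.69 on the DMSO arrays, 9.73, 9.51, 9.26, 9.55, 9.66 and 9.65 with RG7112 and 9.77, 9.78, 9.91, 9.71, 9.83 and 9.63 with HDM201. The RG7112 and DMSO arrays covered nearly the same range, and the HDM201 arrays lay at its top and above. Its difference was 0.01 ± 0.09 with RG7112 (SE, n = 6; 95% interval from -0.19 to 0.20; limma, adjusted p = 0.979) and 0.22 ± 0.09 with HDM201 (95% interval from 0.03 to 0.42; adjusted p = 0.114). The sign with RG7112 changed between settings (from -0.05 to 0.07), and SREBF2 passed in none of the 31 settings of either comparison. A transcript level does not show how much SREBP2 protein was cut.

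The compounds were also set against each other as they were dosed, 500 nM of HDM201 against 2 µM of RG7112, so dose and compound cannot be told apart. The called share was 0% of all probes, with 0 of the 7 genes among them. At an unadjusted p under 0.05 in limma there were 749 probes and 1 of the 7 genes, SREBF2. Its mean was higher by 0.22 with HDM201 than with RG7112 (limma, adjusted p = 0.991). The 95% intervals of the difference, HDM201 minus RG7112, ran from -0.27 to 0.32 for SQLE, from -0.30 to 0.20 for FDPS, from -0.13 to 0.31 for HMGCS1 and from -0.17 to 0.49 for INSIG1. For SC5D the interval ran from -0.14 to 0.49 and for DHCR7 from -0.21 to 0.64, and for SREBF2 from 0.02 to 0.41. These intervals do not show that the compounds acted alike.

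The DMSO signals of all 7 genes were lower by mean in replicates 1 to 3 than in 4 to 6, by 0.11 to 0.36, and none passed (FDPS came nearest, -0.33 ± 0.11, limma, adjusted p = 0.349), beside 0.303% of all probes that did. The change with RG7112 differed between the sets for 0 of the 7 genes and 0.0373% of all probes, and that with HDM201 for 0 of the 7 and 0.149% of all probes. At an unadjusted p under 0.05 in limma 1 of the 7 genes, FDPS, differed between the DMSO sets, beside 5.86% of all probes. For the RG7112 change it was 1 gene, HMGCS1, beside 6.10% of all probes, and for the HDM201 change 0 genes, beside 6.13%.

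The 7 genes also varied together among arrays of the same group. Deviations from the mean of each group and replicate set, over 18 arrays, were correlated positively in 20 of the 21 pairs of genes, with a median r of 0.44 and a range from -0.04 (SC5D with INSIG1) to 0.86 (DHCR7 with SREBF2). The arrays share RNA, labelling and normalization within each point, so these values are a description. Pairs that share a gene are not independent. Pairs of other genes were not counted, so the co-variation is not shown to be particular to the 7. Without RG7112 replicate 3, a choice made after seeing the data, 19 of the 21 pairs were positive over 17 arrays, with a median r of 0.37 and a range from -0.14 (SC5D with SREBF2) to 0.83 (DHCR7 with SREBF2). Seen by array, the mean signal over the 7 genes was 9.15, 8.79, 8.75, 8.91, 9.23 and 9.29 on DMSO replicates 1 to 6, and replicates 1, 5 and 6 lay above the others. On the RG7112 arrays it ran from 8.26 to 8.69 and on the HDM201 arrays from 8.51 to 8.82. The highest treated array thus overlapped with the lowest DMSO arrays. DHCR7 deviated most from array to array (SD of 0.29 within group and set) and FDPS least (0.09). Without RG7112 replicate 3 the SD of DHCR7 was 0.19, INSIG1 deviated most (0.26) and FDPS again least (0.09). Outside the lists, the genes most like the mean deviation of the 7 were SLC6A6, a taurine transporter (r = 0.95 over 18 arrays), C1RL (0.92) and MEFV, ZNF548, MOB3B and CYTH4 (0.90 each). They were picked as the highest of all genes outside the lists, so a high r was built into the choice. In the signals themselves, with no means removed, r with the mean of the 7 was 0.92 for SLC6A6 and 0.70 for MOB3B. It was 0.43 for CYTH4, 0.14 for MEFV, 0.08 for ZNF548 and -0.46 for C1RL. Without RG7112 replicate 3 SLC6A6 (r = 0.93 over 17 arrays), MEFV (0.92) and CYTH4 (0.89) were still among the 6 most alike, and C1RL (0.87), MOB3B (0.85) and ZNF548 (0.84) were not. C1RL rose with RG7112 by 0.73 (limma, adjusted p = 3.11e-05) and with HDM201 by 0.81 (adjusted p = 5.26e-06). SLC6A6 fell with HDM201 by 0.37 (adjusted p = 0.0293) and differed by -0.32 with RG7112 (adjusted p = 0.0657).

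**Figure D3:**
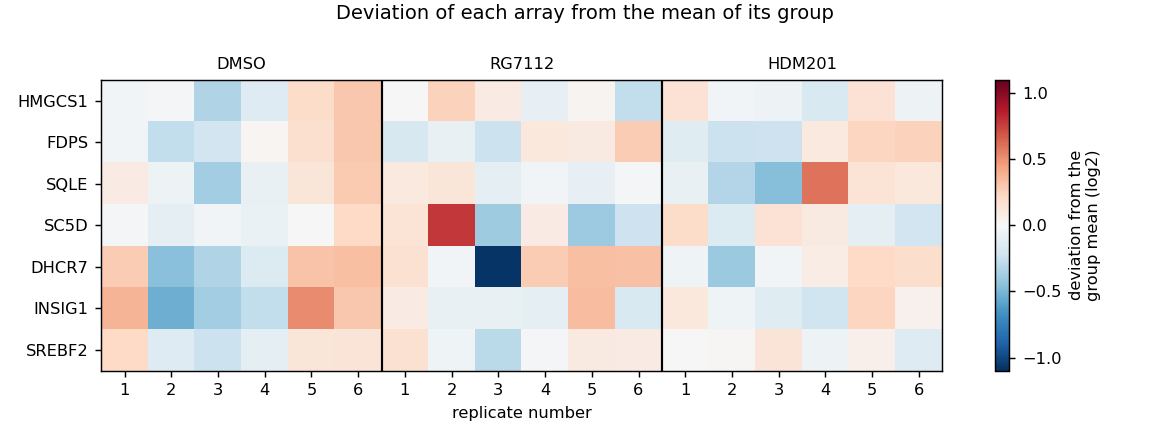
Deviation of each array from the mean of its group on the log2 scale (colour), for the 7 measured genes in rows and the 18 arrays in columns, by group and replicate number. DMSO replicates 1, 5 and 6 are above and 2, 3 and 4 below the group mean for DHCR7, INSIG1 and SREBF2, and RG7112 replicate 3 is the lowest cell of DHCR7.

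The other genes of the pathway were taken from 6 lists of 87 genes, of which 72 were measured. With RG7112 5 of the 72 rose and 18 fell, and with HDM201 8 rose and 16 fell, each beside the shares over all probes given above. The lists were chosen with earlier results of these data known, so the counts of each list are a description and not a test. Without RG7112 replicate 3, 6 rose and 15 fell with RG7112. In a fit on replicates 1 to 3 alone 4 rose and 11 fell with RG7112, and 6 rose and 10 fell with HDM201. That fit has fewer arrays and its own share of all probes is not given, so these counts have no share beside them. From each list up to 4 genes that passed and 1 that did not are described. IDI1, NSDHL, CYP51A1, ACLY and ELOVL5 are named besides, after their values were seen.

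Of 14 measured enzymes that stand beside the followed genes in the mevalonate and sterol chain, 6 fell and 1 rose with RG7112, and 4 fell and 1 rose with HDM201, with median differences of -0.20 and -0.06. Of all probes 9.61% fell and 7.90% rose with RG7112, and 9.64% fell and 9.16% rose with HDM201. EBP, the isomerase that moves a ring double bond, ran from 9.32 to 9.70 under DMSO (median 9.59), from 8.42 to 8.96 with RG7112 (median 8.64) and from 8.47 to 8.96 with HDM201 (median 8.80). Its groups did not overlap with DMSO, and it fell 1.89-fold (-0.92 ± 0.11 SE, limma, adjusted p = 4.28e-06) and 1.79-fold (adjusted p = 7.11e-06). ACAT2, the cytosolic thiolase that supplies acetoacetyl-CoA, fell 1.85-fold (adjusted p = 9.46e-05) and 1.63-fold (adjusted p = 7.61e-04), with all treated arrays below all DMSO arrays. Such a separation, seen also for EBP, was found in 5.61% of all probes with RG7112 and 6.92% with HDM201. IDI1, the isopentenyl diphosphate isomerase, fell by 0.47 and 0.30 (adjusted p = 0.00124 and 0.0257), and the enzymes NSDHL and CYP51A1, of the demethylation steps after lanosterol, fell with RG7112 by 0.41 and 0.31 (adjusted p = 0.00695 and 0.0415). MSMO1, a further demethylation enzyme, differed by -0.36 with RG7112 and -0.11 with HDM201 and did not pass (adjusted p = 0.0599 and 0.643).

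The enzymes of sterol C14 reduction went opposite ways. TM7SF2 ran from 7.88 to 8.34 under DMSO (median 8.26), from 9.05 to 9.62 with RG7112 (median 9.31) and from 9.19 to 10.10 with HDM201 (median 9.54). LBR, a protein of the inner nuclear membrane with the same reductase activity, ran from 10.46 to 10.67 under DMSO (median 10.57), from 9.94 to 10.23 with RG7112 (median 10.07) and from 9.79 to 10.15 with HDM201 (median 9.95). Neither gene overlapped between DMSO and treated arrays. All treated arrays lay below DMSO, as for LBR, in 5.61% of all probes with RG7112 and 6.92% with HDM201. The share of probes above DMSO, as for TM7SF2, is not given here. TM7SF2 rose 2.18-fold with RG7112 (1.12 ± 0.14 SE, limma, adjusted p = 7.53e-06) and 2.59-fold with HDM201 (adjusted p = 3.82e-07). LBR fell 1.41-fold (-0.50 ± 0.08 SE, adjusted p = 1.08e-04) and 1.52-fold (adjusted p = 8.37e-06). Both kept their direction in each set of replicates, but the sets are parts of the arrays that gave the calls, so this adds no support.

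Of 9 measured genes of the list on SREBP control, SCAP rose with both compounds, INSIG2 fell with RG7112, ERLIN2 rose with HDM201 and the others did not pass. Over all probes 7.90% rose and 9.61% fell with RG7112, and 9.16% rose and 9.64% fell with HDM201. SCAP, the escort of SREBP, ran from 9.19 to 9.54 under DMSO (median 9.50), from 9.36 to 10.22 with RG7112 (median 9.90) and from 9.89 to 10.41 with HDM201 (median 9.96). It rose by 0.43 ± 0.12 with RG7112 (limma, adjusted p = 0.0167) and by 0.62 ± 0.12 with HDM201 (adjusted p = 7.58e-04). In numbers 1 to 3 and 4 to 6 it differed by 0.36 and 0.51 with RG7112 and by 0.66 and 0.58 with HDM201, and a fit on replicates 1 to 3 alone ended both calls (adjusted p = 0.328 and 0.0647). In the fit of all 18 arrays by group and set, SCAP passed with HDM201 in both sets (limma, adjusted p = 0.00957 and 0.0347). With RG7112 it passed in neither (0.166 and 0.0839). INSIG2, the other INSIG protein, fell with RG7112 by 0.46 (adjusted p = 0.0269), and leaving out DMSO replicate 5 or 6, or RG7112 replicate 3, 4 or 6, ended that call (adjusted p from 0.0509 to 0.0715), as did a fit on either replicate set alone (0.321 and 0.0764). The ERLIN2 call (0.33, adjusted p = 0.0354) ended when DMSO replicate 4, 5 or 6 or any 1 of HDM201 replicates 1 to 5 was left out (limma, 0.0535 to 0.102 adjusted) and with each array's median subtracted (0.0875). With the other compound INSIG2 differed by -0.35 (HDM201, limma, adjusted p = 0.0947) and ERLIN2 by 0.29 (RG7112, 0.0660), without passing. SREBF1, which encodes SREBP1, differed by -0.35 and -0.42 without passing (adjusted p = 0.179 and 0.0998).

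Among 12 measured genes of sterol uptake and transport, LIPA rose and TMEM97 and LRP8 fell with both compounds, and STARD4, a sterol carrier, rose with HDM201 (0.51, adjusted p = 0.0129). The shares of all probes were 7.90% up and 9.61% down with RG7112, and 9.16% up and 9.64% down with HDM201. The STARD4 difference with HDM201 was 0.85 in numbers 1 to 3 and 0.17 in 4 to 6. A fit on 4 to 6 alone ended that call (adjusted p = 0.511). With RG7112 STARD4 differed by 0.38 over all arrays without passing (limma, adjusted p = 0.0671). That difference was 0.69 in numbers 1 to 3 and 0.08 in 4 to 6. TMEM97, an SREBP-responsive protein that binds the transporter NPC1, ran from 10.44 to 10.75 under DMSO, and from 8.51 to 9.84 with RG7112 and 8.99 to 9.61 with HDM201. It fell 2.33-fold (limma, adjusted p = 2.44e-05) and 2.45-fold (adjusted p = 7.35e-06). LRP8, a receptor of the LDL receptor family, fell 2.16-fold (adjusted p = 9.32e-05) and 2.13-fold (adjusted p = 7.83e-05). LIPA, the lysosomal lipase that frees cholesterol from esters, ran from 8.93 to 9.59 under DMSO, 10.03 to 11.0 with RG7112 and 10.31 to 10.88 with HDM201, and rose 2.26-fold (adjusted p = 5.67e-05) and 2.49-fold (adjusted p = 9.61e-06). VLDLR differed by -0.42 and -0.30 without passing (adjusted p = 0.206 and 0.403).

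Of 13 measured genes of LXR receptors, efflux, esterification and oxysterols, ABCA1 rose and SOAT1 fell with both compounds. That was 1 up and 1 down of the 13 with RG7112, close to the 7.90% and 9.61% of all probes. It was 2 up and 2 down with HDM201, beside 9.16% and 9.64% of all probes. ABCA1, the exporter of cholesterol to apolipoproteins, ran from 5.73 to 7.0 under DMSO, 6.87 to 7.92 with RG7112 and 7.54 to 8.47 with HDM201. It rose 1.92-fold (0.94 ± 0.23 SE, limma, adjusted p = 0.00623) and 2.87-fold (1.52 ± 0.23, adjusted p = 4.97e-05). By replicate set ABCA1 differed with RG7112 by 1.51 in numbers 1 to 3 and by 0.37 in 4 to 6, and a fit on replicates 4 to 6 alone lost the call (adjusted p = 0.240). SOAT1, which stores cholesterol as esters, fell 1.66-fold (adjusted p = 0.00587) and 1.75-fold (adjusted p = 0.00218). It lay wholly below DMSO, as did 5.61% of all probes with RG7112 and 6.92% with HDM201. With HDM201 LPCAT3, a phospholipid acyltransferase, rose by 0.47 (adjusted p = 0.0276) and APOC1, an apolipoprotein, fell by 0.57 (adjusted p = 0.0318). With RG7112 LPCAT3 differed by 0.20 and APOC1 by -0.50 without passing (limma, adjusted p = 0.393 and 0.0665). APOC1 was dim, at 3.68 to 5.01 under DMSO and 3.48 to 4.20 with HDM201, below the array medians of 6.44 to 6.57. CYP46A1, the cholesterol 24-hydroxylase, differed by 0.23 and 0.08 without passing (adjusted p = 0.222 and 0.743). Single arrays decided the LPCAT3 and APOC1 calls: LPCAT3 was lost without DMSO replicate 4 or HDM201 replicates 1, 2 or 3 (adjusted p from 0.0645 to 0.0815), and APOC1 without DMSO replicates 4 or 5 or HDM201 replicates 1, 2 or 3 (0.0572 to 0.0894).

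Fatty acid synthesis, the branch linked to SREBP1, had 6 of 12 measured genes down and 0 up with each compound, with median differences of -0.28 and -0.24. Beside these stand 9.61% of all probes down and 7.90% up with RG7112, and 9.64% and 9.16% with HDM201. FADS2, a fatty acid desaturase, ran from 10.33 to 11.83 under DMSO (median 11.22), 8.53 to 10.47 with RG7112 (median 9.77) and 8.58 to 10.47 with HDM201 (median 9.65). It fell 2.81-fold (-1.49 ± 0.36 SE, limma, adjusted p = 0.00525) and 3.03-fold (adjusted p = 0.00244), with ranges that just overlapped. SCD, the stearoyl-CoA desaturase, fell 2.26-fold (adjusted p = 0.0137) and 2.25-fold (adjusted p = 0.0125). FADS2 and SCD had lower means in replicates 1 to 3 than in 4 to 6 of every group. Under DMSO these were 10.71 and 11.54 for FADS2, and 10.14 and 11.03 for SCD. By set FADS2 differed by -1.59 and -1.39 with RG7112 and by -1.73 and -1.47 with HDM201. For SCD these differences were -1.27 and -1.09 with RG7112, and -1.29 and -1.04 with HDM201. ACACB, an acetyl-CoA carboxylase, fell by 0.61 and 0.70 (adjusted p = 0.00205 and 4.80e-04). With RG7112 its difference was -0.89 in numbers 1 to 3 and -0.34 in 4 to 6, and a fit on replicates 4 to 6 alone ended that call (adjusted p = 0.152). ACLY and ELOVL5, which make cytosolic acetyl-CoA and lengthen fatty acids, fell by 0.28 and 0.35 with RG7112 and by 0.23 and 0.33 with HDM201. ME1, the malic enzyme, fell by 0.45 and 0.43 (adjusted p = 0.0263 and 0.0280), and single arrays decided both calls. The RG7112 call ended without DMSO replicate 2, 3 or 6 or RG7112 replicate 3 or 6 (adjusted p from 0.0504 to 0.0660), and the HDM201 call without DMSO replicate 2, 3, 5 or 6 or HDM201 replicate 1, 4 or 6 (0.0502 to 0.0753). ACACA, the other carboxylase, differed by -0.28 and -0.24 without passing (adjusted p = 0.0989 and 0.169).

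Of 12 measured users of isoprenoids 2 fell and 1 rose with each compound, beside 9.61% and 7.90% of all probes with RG7112 and 9.64% and 9.16% with HDM201. ICMT, which methylates prenylated proteins, fell by 0.57 and 0.59 (limma, adjusted p = 1.11e-04 and 5.38e-05). PDSS1, which builds the tail of ubiquinone, fell by 0.57 and 0.64 (adjusted p = 0.00532 and 0.00189), and RABGGTA, a subunit of the transferase that prenylates RAB proteins, rose by 0.45 and 0.64 (adjusted p = 0.00673 and 2.14e-04). With RG7112 PDSS1 differed by -0.82 in numbers 1 to 3 and -0.33 in 4 to 6, and a fit on 4 to 6 alone ended its call (adjusted p = 0.114). RABGGTA differed by 0.36 and 0.54, and a fit on 1 to 3 alone ended its RG7112 call (adjusted p = 0.234). DOLK, the dolichol kinase, differed by 0.16 and 0.25 without passing (adjusted p = 0.430 and 0.186). Over the 6 lists, the 18 genes chosen by that rule that passed with RG7112 and the 21 that passed with HDM201 had the same direction in replicates 1 to 3 and 4 to 6, and for none did the difference between the sets pass. These genes were chosen for passing over all arrays, which make up both sets. Their shared direction is thus largely fixed by the choice and adds no support.

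**Figure D4:**
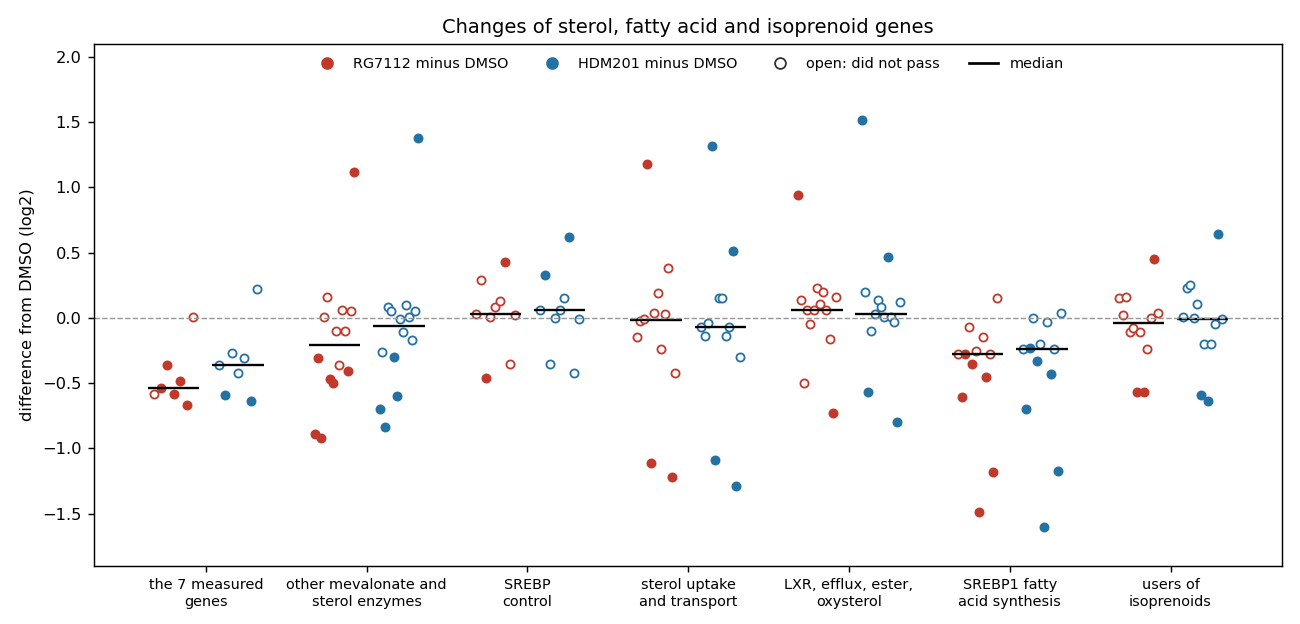
Difference from DMSO on the log2 scale for the 7 measured genes and for the 72 measured genes of the 6 lists, with RG7112 in red and HDM201 in blue; filled points passed at an adjusted p under 0.05, open points did not, and the lines are medians. The medians of the 7 genes are -0.54 and -0.36, those of the 14 other enzymes -0.20 and -0.06, and those of the 12 fatty acid genes -0.28 and -0.24.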

How the data were processed

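RNA of 18 OCI-AML3 samples was measured on arrays. The authors deposited log2 signals, made with oligo and RMA, per the submitters' processing notes. RMA subtracts background, equalises quantiles across arrays and combines the probes of a set. No source used here gives the versions or the build. Equalised quantiles remove differences in overall signal between arrays. All 18 columns were used. Symbols came from a platform annotation table: 17709 of 21448 probes have 1, none has several and 3739 have none. Samples were grouped by their labels. Probes were fitted without a filter in limma 3.58.1 (R 4.3.3). This step was tested on simulated data with independent noise on each array, so the test does not cover noise shared between arrays. A second fit had a mean for each group and replicate set. Replicate sets were found in earlier results of these data, and the genes and lists were chosen with earlier results of these data known. Genes described are the 7, and from each list the 4 largest changes that passed in either comparison plus the largest that passed in neither. For likeness, the 6 genes with the highest r were taken. Alternatives were the prior, array weights, filters on dim probes, probes with 1 symbol, normalization, the 12 arrays compared, the replicate number, the replicate sets, single arrays left out, and the mean over probes of a symbol. Promoter sequences are RefSeq's.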

Additional observations from a re-analysis of the deposited data

Results flagged for a closer look

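In 7 of 111 groups of 6 arrays, over 37 genes, 1 array lay far from the rest, where chance gives about 1 in 20. RG7112 replicate 3 was low for DHCR7 (7.81 against 8.86 to 9.22 on the other RG7112 arrays), for ACAT2 (6.91 against 7.60 to 7.99) and for TMEM97 (8.51 against 9.35 to 9.84). Without that array ACAT2 and TMEM97 still fell with RG7112, by 0.73 and 1.04 (limma, adjusted p = 7.39e-06 and 3.30e-06). SC5D was high on DMSO replicate 6 (7.11 against 6.77 to 6.89), and TM7SF2 was low on DMSO replicate 2 (7.88 against 8.22 to 8.34). INSIG2 was high on HDM201 replicate 5 (7.35 against 6.84 to 6.96), and ICMT was high on HDM201 replicate 4 (9.40 against 9.14 to 9.21).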

How the results depend on the processing

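The number of the 7 genes that fell with RG7112, 5 in the fit reported, was 1 with replicates 1 to 3 only and ran from 3 (without DMSO replicate 5, and without DMSO replicate 6) to 6 when single arrays were left out. With HDM201, 2 in the fit reported, it was 4 without the probes below the median signal, 4 with each array's median subtracted, 1 with replicates 4 to 6 only, and ran from 2 to 4 when single arrays were left out, with 4 without DMSO replicate 3. The filter tests fewer probes. For the other settings the cause was not tested. Fits on 1 replicate set use fewer arrays, and the share of all probes called in them is not given here. No gene of the 7 rose in any of the 31 settings of either comparison, and no called difference changed sign. With the replicate number as a block 6 fell with RG7112, DHCR7 being added (limma, adjusted p = 0.00950), and 3 with HDM201, INSIG1 being added (0.00986), while all probes gave 2148 up and 2632 down against 1695 and 2062 (RG7112) and 2323 and 2543 against 1965 and 2067 (HDM201). Deviations from the group mean had r over 0.1 in 16 of 18 pairs of same-numbered arrays. Of the 18 arrays 14 correlated best with their own number, a hint from the data and not from the design. Means of the replicate sets were not removed here, so a difference between the sets can add to these r. Under this block the genes of the 6 lists that fell numbered 24 and 21. Of the genes described, MSMO1 (0.0189), ERLIN2 (0.0468), SREBF1 (0.0298), VLDLR (0.0399), APOC1 (0.00536) and ACACA (0.00635) passed with RG7112 under the block (adjusted p), although not in the fit reported, as did INSIG2 (0.0254), SREBF1 (0.00875) and ACACA (0.0157) with HDM201. Fits on 1 replicate set alone, each with fewer arrays, also ended the calls of ACAT2 (0.0955), APOC1 (0.238) and ERLIN2 (0.642) with HDM201 and of ME1 (0.344 and 0.322) in replicates 1 to 3, and of LPCAT3 (0.168) with HDM201 in 4 to 6. In the fit of all 18 arrays by group and set, ACAT2 passed with HDM201 in 1 to 3 (limma, adjusted p = 0.0189). There APOC1 (0.190), ERLIN2 (0.533), ME1 (0.221 and 0.191) and LPCAT3 (0.478) did not. With 6 arrays a group, precision is limited by their number.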
